A study of Mus musculus with 20 samples.

Results

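The genes described here are 10 genes of heart muscle measured in whole mouse lung: Myh6, Myl4, Myl7 and Myl2 of the thick filament, Actc1, Tnnt2 and Tnni3 of the thin filament, the calcium pump regulator Sln, and the hormone genes Nppa and Nppb. They were taken as all array probes that carry one of these gene names, and all 10 were among the 19903 genes tested. They were chosen by their log2 lung over reference ratios on these arrays, from how these varied between lungs and together, with earlier results known, so their spread and their values against control lungs are given as a description. The lungs came from time-mated C57BL/6BomTac female mice instilled through the trachea 4 times, the first on gestation day 7 and the last on gestation day 18. Control dams received the vehicle, Milli-Q water. Dams of the Low, Medium and High groups received Printex 90 carbon black, a nanosized carbon powder, dispersed in that vehicle, to a total of 11 µg, 54 µg and 268 µg. Each group had 5 dams, killed after weaning, 26 to 27 days after exposure, and each dam gave 1 array. The arrays therefore show mothers that had carried and nursed a litter, and the labels describe the tissue as lung without naming a region. Lung RNA was labelled with Cy5 and a commercial pool of mouse reference RNA (Stratagene Universal Reference RNA) with Cy3, and each value is the log2 of lung over reference.

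Cardiomyocytes contract by sliding myosin thick filaments along actin thin filaments, and the troponin complex on the thin filament makes this depend on calcium. The sarcoplasmic reticulum pump ATP2A2 takes the calcium back up, and small membrane proteins such as sarcolipin (Sln) and phospholamban (Pln) restrain it. In mice and rats the wall of the pulmonary veins holds a sleeve of heart muscle that continues from the left atrium into the lung, and in the adult mouse Myl4, Myl7, Sln and Nppa are atrial genes while Myl2 is a ventricular one. Nppa and Nppb encode the natriuretic peptides, which lower blood pressure and volume through the receptor NPR1.

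RefSeq gives a start site window on GRCm38.p6 for 9 of the 10 genes, all but Sln, and the 250 bases before the start were searched on both strands for 6 short motifs: the TATA box and motifs known to be bound by serum response factor and by GATA, TEAD, T-box and MEF2 factors. The windows of Nppa, Myl7 and Actc1 are shown because they lie outside every annotated gene and stand for the hormone, thick filament and thin filament genes. They read 5′ to 3′ on the gene's own strand, with motif matches in capitals.
Nppa, chr4:148000472-148000721, plus strand: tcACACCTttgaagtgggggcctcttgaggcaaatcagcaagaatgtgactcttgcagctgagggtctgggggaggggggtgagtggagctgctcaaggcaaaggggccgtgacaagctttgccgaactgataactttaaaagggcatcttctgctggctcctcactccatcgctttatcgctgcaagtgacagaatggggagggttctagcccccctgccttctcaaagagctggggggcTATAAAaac
Myl7, chr11:5898783-5899032, minus strand: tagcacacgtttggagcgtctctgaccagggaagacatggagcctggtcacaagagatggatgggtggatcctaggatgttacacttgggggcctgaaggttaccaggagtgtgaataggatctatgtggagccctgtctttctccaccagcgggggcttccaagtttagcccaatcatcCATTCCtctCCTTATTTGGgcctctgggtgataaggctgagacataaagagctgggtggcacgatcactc
Actc1, chr2:114052876-114053125, minus strand: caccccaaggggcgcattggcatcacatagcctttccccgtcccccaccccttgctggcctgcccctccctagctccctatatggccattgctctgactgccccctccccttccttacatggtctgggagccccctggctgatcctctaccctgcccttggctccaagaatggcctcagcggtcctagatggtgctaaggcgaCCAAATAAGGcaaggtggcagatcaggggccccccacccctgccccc
In the Myl7 window the capitals mark an MCAT motif (CATTCC) that begins 70 bases before the start and a CArG box that begins 61 bases before it. In the Actc1 window they mark a CArG box, and in the Nppa window a T-box motif (AGGTGT, on the opposite strand) and a TATA box (TATAAA). A CArG box, the site that serum response factor is known to bind, stood in 2 of the 9 genes and in 1.47% of all 32851 start windows. CATTCC stood in 4 of the 9 genes (Myl7, Myh6, Nppb and Tnnt2) and in 12.6% of all windows, and the GATA motif AGATAA in 3 (Nppb, Myl2 and Tnnt2) and in 9.99%. TATAAA stood in 3 genes and 12.4% of all windows, AGGTGT in 2 genes and 11.8%, and the MEF2 motif in none of the 9 and in 2.92%. No 2 of these matches overlapped. The genes are spread over the genome: Tnnt2 lies on chromosome 1, Actc1 on 2, Nppa and Nppb on 4, Myl2 on 5, Tnni3 on 7, Sln on 9, Myl4 and Myl7 on 11 and Myh6 on 14. A match here is a string of letters in the window and not a measured site.

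The 20 arrays resembled each other, with a Pearson r between 0.951 and 0.988 over all genes tested for each pair, and 63.3% to 77.8% of probes were well above background in Cy5. The lung itself was clear on every array: the mean log2 ratio of 12 epithelial and endothelial markers lay between 3.73 and 4.56. Slides 1 to 3 each held 1 dam of all 4 groups, slides 4 and 5 lacked a Medium dam, and slide 6 held Medium 49 and Medium 50 alone, scanned on a day of its own and read with a later version of the software. Lungs are named below by group and animal number.

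Sln and the contractile genes other than Myl2 differed between lungs far more than most genes did. Over the 20 lungs the SD of the log2 ratio was 1.66 for Sln, 1.33 for Tnnt2, 1.18 for Myl4 and 1.17 for Tnni3, against a median of 0.13 over all genes. Sln ranked 3 of 19903 genes by this SD, Tnnt2 ranked 12, Myl4 23, Tnni3 27 and Nppa 28. Myl7, Myh6 and Actc1 had an SD of 0.69, 0.67 and 0.67, and ranked 160, 171 and 173. Nppb, with an SD of 0.23, ranked 2628, and Myl2, with an SD of 0.10, ranked 14459. Because the genes were chosen for this spread, the ranks describe them and test nothing.

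The thick filament genes other than Myl2 separated the same lungs. Myl4, the essential light chain of atrial myosin, had log2 ratios of 2.52, 2.37, -0.37, 2.42 and 1.90 in Control dams 4, 7, 14, 15 and 18. In Low dams 25, 27, 28, 31 and 36 it had 2.79, 2.25, 1.28, -0.01 and 2.32, in Medium dams 46 to 50 it had 2.62, 0.09, -0.09, -0.23 and -0.33, and in High dams 60, 62, 63, 64 and 65 it had 1.79, 1.72, 0.54, 2.61 and 2.30. Control 14, Low 31 and Medium 47 to 50 were low, Medium 46 was among the highest, High 63 lay between, and every group overlapped every other.

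Myl7, the regulatory light chain of atrial myosin, ran from 2.48 in Control 14 to 4.45 in Control 15. It ran from 3.06 to 4.83 in Low dams, from 3.00 to 4.77 in Medium dams and from 3.62 to 4.57 in High dams, with the median at 4.26 in Control, 4.50 in Low, 3.21 in Medium and 4.36 in High dams. Myh6, the alpha heavy chain of cardiac myosin, was 1.39 to 3.14 in Control, 1.56 to 3.27 in Low, 1.43 to 3.28 in Medium and 1.92 to 3.23 in High dams. Its lowest value in each group came from the same dam as the lowest Myl7, namely Control 14, Low 31, Medium 50 and High 63.

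Myl2, the ventricular regulatory light chain, stayed near background: its Cy5 signal was 89 to 110 on all 20 arrays, where the median local background was 80 to 83, and its spot was well above background on 7. Its log2 ratios lay between -0.16 and 0.29, so it gives no usable level. For the other 9 genes the probe used was well above background on 10 arrays (Nppb), 19 arrays (Sln) or all 20.

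The thin filament genes showed the same lungs at the same ends. Tnnt2, the cardiac troponin T that anchors the troponin complex to tropomyosin, was 2.18, 2.12, -0.68, 2.23 and 1.80 in Control dams and 2.52, 2.30, 0.83, -0.51 and 2.16 in Low dams, in the dam order given for Myl4. It was 2.62, -0.16, -0.55, -0.94 and -1.17 in Medium dams and 1.55, 1.39, 0.49, 2.40 and 2.18 in High dams. Of the Medium dams only 46 had Tnnt2 above the reference RNA.

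Tnni3, the inhibitory subunit cardiac troponin I, ran from 0.48 to 3.53 in Control, from 0.97 to 3.83 in Low, from 0.61 to 3.71 in Medium and from 1.66 to 3.47 in High dams. Actc1, cardiac alpha actin, had the narrowest range of the thin filament genes: 0.67 to 1.88 in Control, 0.50 to 1.88 in Low, -0.34 to 1.89 in Medium and 0.84 to 1.82 in High dams. In both genes Medium 46 was the highest of its group and Medium 50 the lowest.

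Sln, whose protein slows the calcium pump in atrial muscle, had the widest range of the 10 genes. Its log2 ratios were 4.39, 4.10, 0.08, 4.57 and 4.31 in Control dams, 4.82, 4.24, 3.72, 1.46 and 4.67 in Low dams, 4.87, 1.91, 1.12, 0.67 and 0.46 in Medium dams, and 4.27, 3.50, 2.47, 4.67 and 4.40 in High dams. In lung RNA alone its Cy5 signal ran from 92 in Control 14 to 18237 in Medium 46, and it was well above background on every array but that of Control 14. A second Sln probe was well above background on 3 arrays only and spanned -0.20 to 0.16, so the range of Sln rests on 1 probe.

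Nppa, the gene of atrial natriuretic peptide, did not simply copy the filament genes. It was 2.78, 1.98, 0.12, 1.46 and 0.56 in Control dams, 1.11, 0.56, 0.31, 0.17 and 1.36 in Low dams, 2.45, 0.32, 0.26, 0.16 and 0.22 in Medium dams, and 0.27, 0.95, 0.35, 4.26 and 2.75 in High dams. The 6 lungs low in Myl4 were low in Nppa too, but High 60 and Low 28, which were not, had Nppa of 0.27 and 0.31. Low 27 and Control 7, with Myl4 of 2.25 and 2.37, had Nppa of 0.56 and 1.98. In these 2 lungs, High 60 and Low 28, the Cy5 signal of Nppa was 122 and 143, where the median local background was 80 to 83. Low Nppa values thus lie near background, although the probe used was well above it on all 20 arrays. Nppa is printed in 10 spots for each of 2 probes, and the second probe followed the first over the arrays with r = 0.98. The second probe was well above background on 12 arrays.

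Nppb, the gene of B-type natriuretic peptide, was dim, with a Cy5 signal of 95.5 to 192 in the probe used. Its log2 ratios lay between -1.24 and -0.93 in Control, between -1.06 and -0.85 in Low, between -1.03 and -0.75 in Medium and between -1.0 and -0.09 in High dams. The value of -0.09 came from High 64, the lung with the highest Nppa, and the other High dams reached no more than -0.78. A second Nppb probe, with a Cy5 signal of 99 to 221, was well above background on 18 arrays and followed the first with r = 0.70. It averaged -0.57 ± 0.17 in Control, -0.50 ± 0.09 in Low, -0.29 ± 0.09 in Medium and -0.30 ± 0.22 in High dams (SD, n = 5 each). Nppa and Nppb lie side by side on chromosome 4 of GRCm38.p6 with no annotated gene between them.

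**Figure D1:**
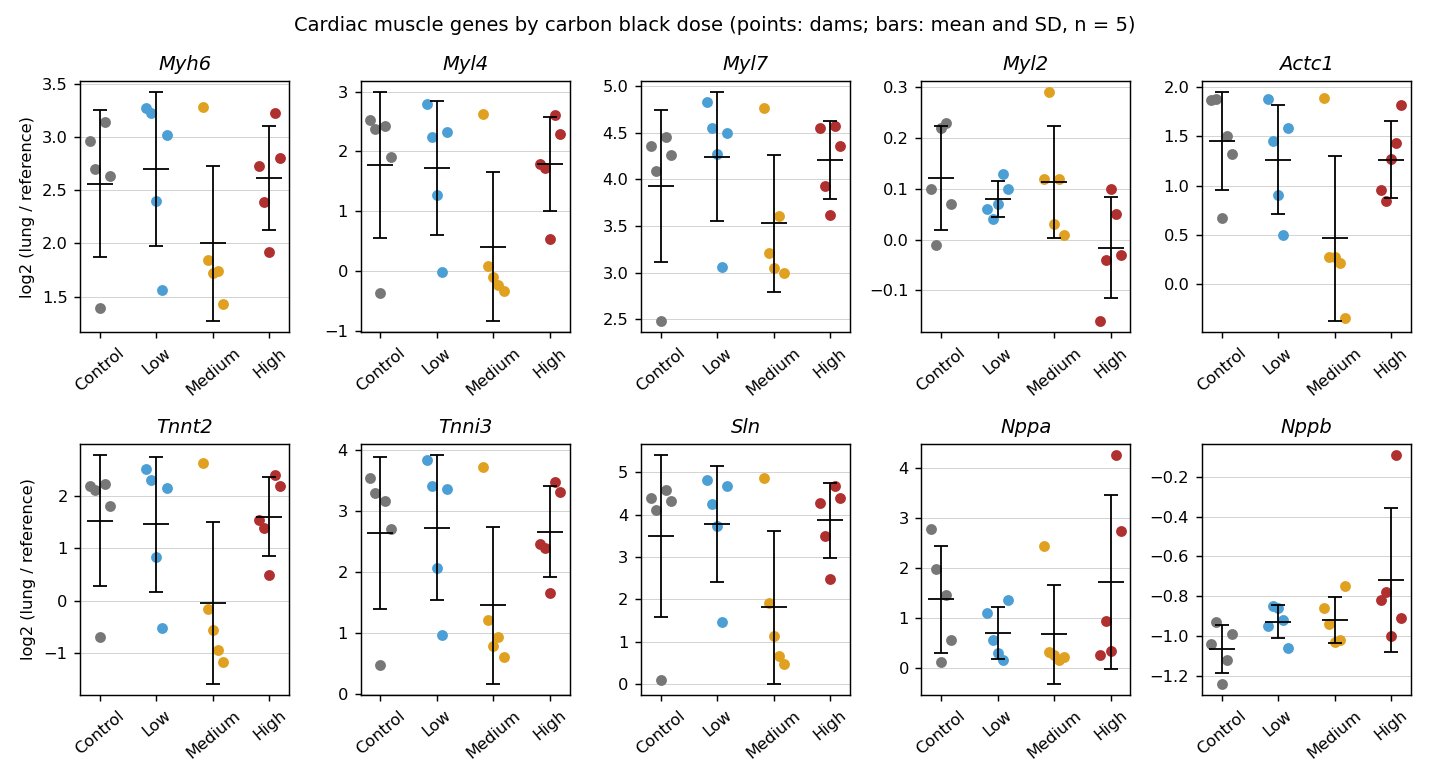
Log2 of lung over reference RNA (vertical axes, 1 panel per gene with its own scale) in each dam by dose group (horizontal axis). Points are dams, and bars give the mean and SD of 5 dams. In Sln and the filament genes other than Myl2, Medium 46 sits apart from the other Medium dams and Control 14 below the other Control dams.

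Set against the Control group, none of the 10 genes passed limma at an adjusted p below 0.05 in any dose group, where 0.00502% of all genes passed in the Low, 0.00502% in the Medium and 1.04% in the High group. At an unadjusted p below 0.05 there were 0 of the 10 in the Low group, 3 in the Medium group (Actc1, Tnnt2 and Myl4) and 2 in the High group (Nppb and Myl2), where 7.5%, 14.1% and 16.5% of all genes passed. Each of the 10 genes overlapped the Control dams in every dose group, while 1.47%, 3.22% and 3.47% of all genes did not overlap. The lowest adjusted p of the 10 was 0.844 in the Low, 0.235 in the Medium and 0.163 in the High group.

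In the Medium group 9 of the 10 genes had a negative difference, against 47.6% of all genes tested. The 9 include Myl2 at -0.01, and the filament genes vary together, so this is not a count of separate results. The median over the 10 genes was -0.84 on the log2 scale, against 0.00679 over all genes tested. Sln averaged 1.81 ± 1.80 in Medium dams and 3.49 ± 1.91 in Control dams (SD, n = 5 each), a difference of -1.68 ± 0.89 (SE). Tnnt2 averaged -0.04 ± 1.54 in Medium dams and 1.53 ± 1.25 in Control dams, a difference of -1.57 ± 0.71. The differences were -1.35 ± 0.63 for Myl4, -1.18 ± 0.65 for Tnni3 and -0.99 ± 0.34 for Actc1, and -0.70 ± 0.67 for Nppa, -0.56 ± 0.38 for Myh6 and -0.40 ± 0.39 for Myl7. Nppb, at 0.14 ± 0.12, was the exception in sign.

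The Medium difference was not the same on every slide. The median over the 10 genes of Medium minus Control was 0.18 on slide 1, -1.63 on slide 2 and 0.25 on slide 3, and slide 6 held no Control dam. The median difference was -0.41 with the slide as a block, -0.50 with the scan day as a block, -0.50 without slide 6 and -1.76 from the Cy5 channel alone. Myh6 was higher in Medium than in Control dams, by 0.42, in the software's own log ratio.

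In the Low and High groups the differences of the 10 genes had medians of 0.03 and 0.06 on the log2 scale, against -0.000341 and -0.00907 over all genes, and the median over the 10 genes turned negative when single dams were left out. For Sln, Low dams averaged 3.78 ± 1.37, High dams 3.86 ± 0.89 and Control dams 3.49 ± 1.91 (SD, n = 5 each). The Sln difference was 0.29 ± 0.89 in Low and 0.37 ± 0.89 in High dams (SE). Nppa averaged 0.70 ± 0.51 in Low, 1.71 ± 1.74 in High and 1.38 ± 1.07 in Control dams, and 0 of 5 Low dams lay above the Control median. The group means of Sln fell from High through Low and Control to Medium. The widest step was that between Control and Medium, a difference of -1.68 ± 0.89 (SE) at an adjusted p of 0.397 by limma. The SD of 1.91 in Control dams includes Control 14 at 0.08, where the other Control dams had 4.10 to 4.57.

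Nppb was higher in the High dam than in the Control dam on 5 of 5 slides, by 0.07 to 1.03. It averaged -0.72 ± 0.36 in High dams and -1.06 ± 0.12 in Control dams (SD, n = 5 each), with an adjusted p of 0.163 by limma, and the difference of 0.34 was 0.18 without High 64. The probe used was well above background on 4 High arrays and 1 Control array. In the second probe the difference was 0.27 in High and 0.28 in Medium dams, against 0.34 and 0.14 in the probe used, so the 2 probes do not place the Medium dams alike. Myl2 averaged -0.01 ± 0.10 in High dams and 0.12 ± 0.11 in Control dams, at signals near background. It too had the same sign on 5 of 5 slides, with High minus Control from -0.26 to -0.02. The share of all genes with the same sign on 5 slides was not computed.

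In the log2 ratios of the value table the filament genes and Sln varied together over the lungs. Leaving Myl2 aside, the 7 genes Myh6, Myl4, Myl7, Sln, Actc1, Tnni3 and Tnnt2 form 21 pairs, and over the 20 lungs their Pearson r lay between 0.79 and 0.99 with a median of 0.96. Spearman's rho of these pairs lay between 0.77 and 0.97. With the group means removed r lay between 0.81 and 0.99, and with the slide means removed between 0.66 and 0.99. In the Feature Extraction log ratio, the software's own, the 21 pairs ran from -0.30 to 0.99 with a median of 0.74. There Myh6 had a median r of -0.21 with the other 6 genes and the others had medians between 0.71 and 0.85, a change whose cause was not tested. Over all 45 pairs of the 10 genes the median r was 0.70, and 0.36 in the Feature Extraction log ratio. The lungs share the array platform, the reference RNA and, within a slide, the hybridisation, and covariation was part of how the genes were chosen, so these values are descriptive and carry no p.

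Against the mean of the other 9 standardised genes, r was 0.97 for Myl4 and Tnni3, 0.96 for Myh6 and Tnnt2, 0.94 for Sln, 0.89 for Myl7 and 0.86 for Actc1. Leaving out the 2 lungs farthest from the median changed these to between 0.89 and 0.98. Nppa had r = 0.73 and rho = 0.88. Nppb had r = 0.24 and rho = 0.09, and Myl2 had r = -0.29 and rho = -0.21. Between the neighbouring genes Nppa and Nppb, r was 0.53 and rho 0.14, and r was 0.07 without High 64 and Control 4.

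**Figure D2:**
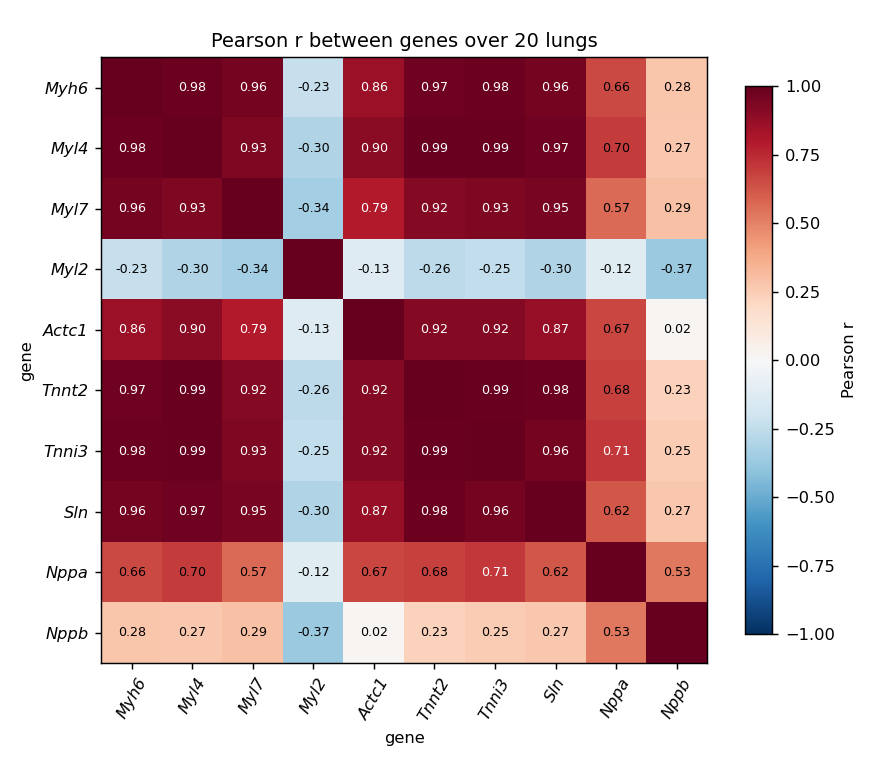
Pearson r over 20 lungs for each pair of the 10 genes (both axes; colour and printed value). The 21 pairs among Sln and the filament genes other than Myl2 lie between 0.79 and 0.99, while no value in the rows of Myl2 and Nppb is above 0.53.

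Ordered by the mean of the 10 standardised genes, the 6 lowest lungs were Medium 50, Control 14, Medium 48, Medium 49, Low 31 and Medium 47. They were also the 6 lowest lungs for each of Myh6, Myl4, Myl7, Sln, Actc1, Tnni3 and Tnnt2 on its own, and held 5 of the 6 lowest for Nppa, 3 for Nppb and 2 for Myl2. The 6 came from 3 of the 4 groups. The highest lungs were High 64, Medium 46, Low 25 and Control 4, one of each group, at a mean standardised value of 1.23, 0.96, 0.76 and 0.69. In RNA from a whole lung, fewer cardiomyocytes and less RNA per cardiomyocyte cannot be told apart.

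**Figure D3:**
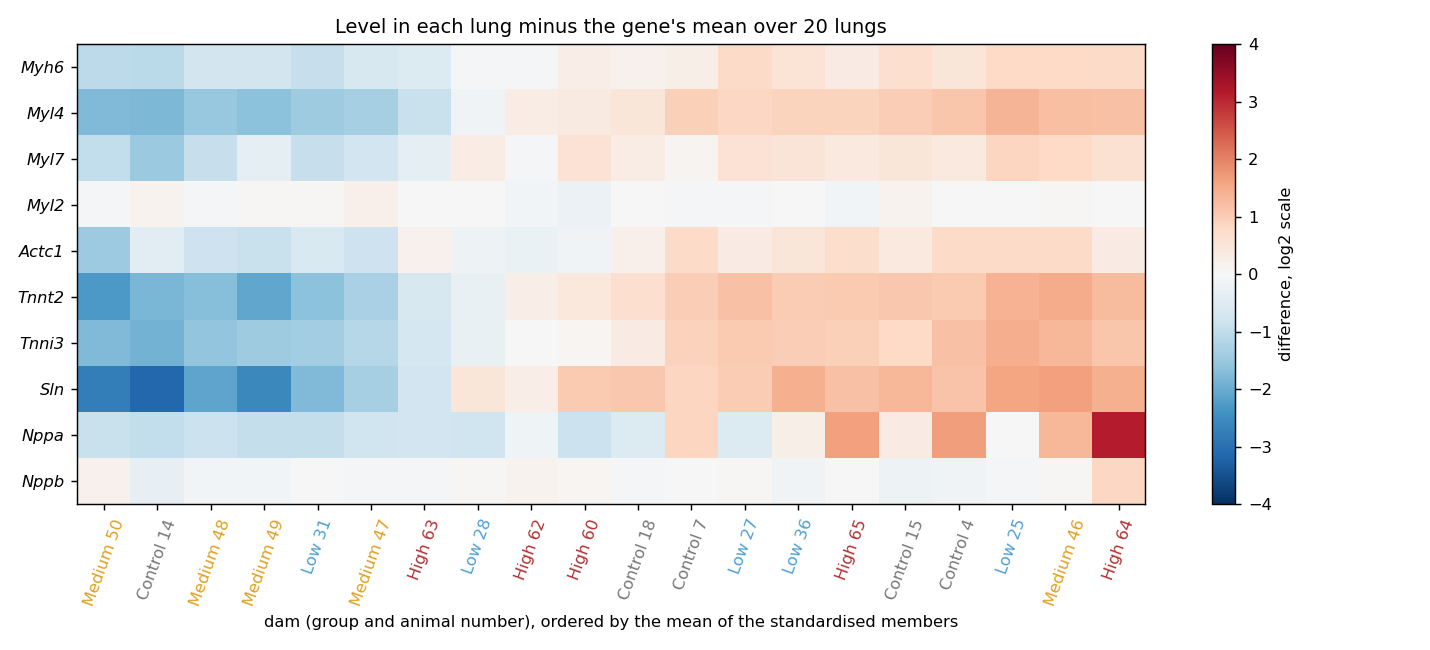
Log2 ratio of each gene (vertical axis) in each lung minus the gene's mean over the 20 lungs (colour), with lungs ordered along the horizontal axis by the mean of the standardised genes and labelled by group and animal number. Medium 50 and Control 14 stand at the low end and High 64 at the high end; Myl2 hardly changes, and Nppa is strongest in High 64.

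The reference channel moved with the lung channel for 7 of the 10 genes, although the same reference RNA was put on every array. For Myl7 the Cy3 signal ran from 67.5 to 1281 while Cy5 ran from 958 to 45601, and after each array's median was removed their log2 values had r = 0.98. The same r was 0.99 for Myh6, 0.95 for Sln, 0.96 for Myl4, 0.92 for Nppa and Tnnt2 and 0.91 for Tnni3, against a median of 0.66 over all genes. Actc1, at 0.68, lay near that median, and Myl2 and Nppb, at 0.43 and 0.35, below it. The SD of log2 Cy3 was 1.40 for Myl7, 1.20 for Myh6, 1.07 for Sln and 0.20 for Actc1, against a median of 0.17 over all genes. A ratio of lung over reference is smaller than the change in lung signal where both channels move together. The SD of Sln was 2.58 in log2 Cy5 after each array's median was removed and 1.66 as a ratio. What moves the Cy3 signal was not tested.

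**Figure D4:**
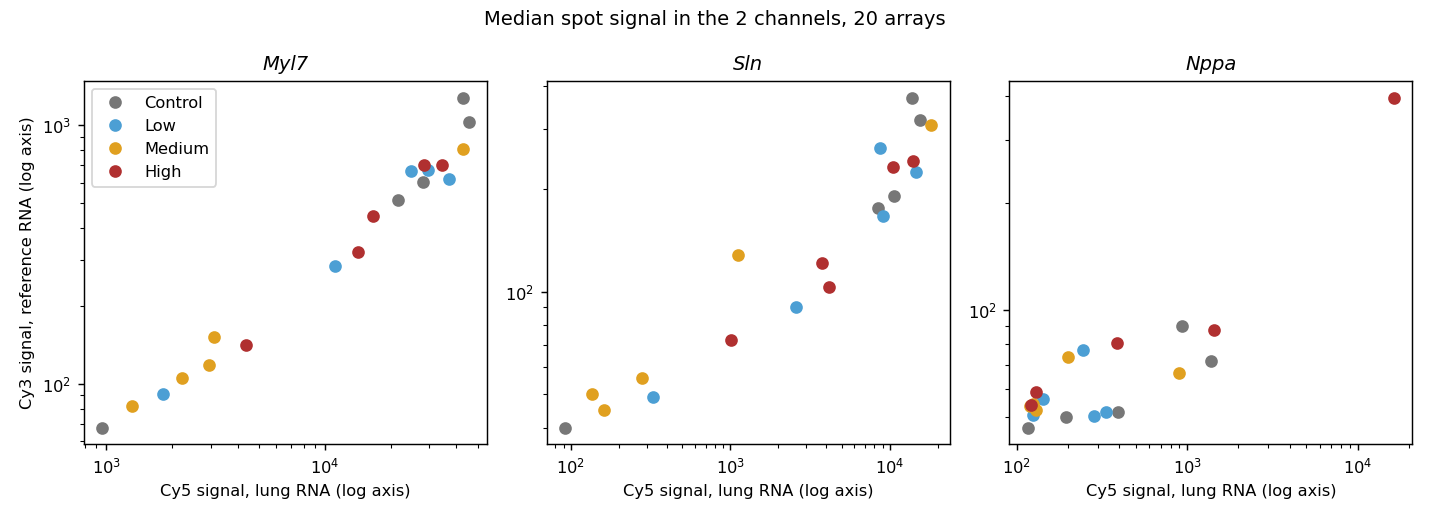
Median spot signal of reference RNA in Cy3 (vertical log axis) against that of lung RNA in Cy5 (horizontal log axis) for Myl7, Sln and Nppa on 20 arrays, coloured by dose group. For Myl7 the Cy3 signal climbs from 67.5 to 1281 along with Cy5; for Nppa only the array of High 64 stands clearly higher.

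Beyond the 10 genes, other genes of striated muscle followed the same order of lungs. The 10 named genes most like the mean of the standardised members were Mybpc3, Myom2, Myoz2, Mb, Art1, Csrp3, Fndc5, Trim54, Xirp2 and Ckmt2, with r between 0.97 and 0.98 over 20 lungs and, with group means removed, between 0.97 and 0.98. Mybpc3, cardiac myosin binding protein C, ran from -3.69 to -0.05. Myom2, an M-band protein, ran from -1.65 to 2.38, myoglobin (Mb) from -0.19 to 3.05, and Ckmt2, the sarcomeric mitochondrial creatine kinase, from -0.01 to 3.54. Over all 19893 genes that are no members the median r was -0.06 and the middle 90% lay between -0.47 and 0.53.

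Of 45 other cardiomyocyte genes, 44 were tested and none passed in any dose group by limma. At an unadjusted p below 0.05 there were 1 in the Low, 16 in the Medium and 3 in the High group. Of all genes, 7.5%, 14.1% and 16.5% were below it. These cardiomyocyte genes vary together over the lungs, so the counts are not counts of separate results. Their median r with the members was 0.91, and 30 of the 44 exceeded 0.8. Their median difference was -0.09 in Low, -0.49 in Medium and -0.13 in High dams. The calcium handling genes Atp2a2, Pln and Casq2 had r of 0.96, 0.96 and 0.94, while the other pump genes split, with Atp2a1 at 0.89 and Atp2a3, a pump of other tissues, at -0.42. Myh7, the slow beta heavy chain, ran the other way with r = -0.49 in a narrow range of 2.83 to 3.98.

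Genes that separate the chambers or regulate the heart followed less evenly. Of 12 atrial or pulmonary vein genes 9 were tested, with a median r of 0.30, and 2 of the 9 exceeded 0.8. These were Hamp (r = 0.91) and Kcnj3 (r = 0.89, well above background on 13 arrays). The rest ran from Gja5 (r = -0.21) to Kcnj5 (r = 0.46). Bmp10 and Nr2f1 were well above background on 1 array or fewer. Of 6 ventricular genes 4 were tested. Myl3, the essential light chain of ventricular myosin, had r = 0.93 and log2 ratios of -0.99 to 1.42, was well above background on 18 arrays, and differed by -1.19 ± 0.42 (SE) in Medium against Control dams at an adjusted p of 0.236 by limma. The other 3 were Myh7, Hey2 (r = 0.23) and Irx4 (r = -0.10). Of 12 cardiac transcription factors 11 were tested, with a median r of -0.15 and 7 below 0. Tbx20, well above background on 8 arrays, had r = 0.86. Myocd had 0.66, Nkx2-5 0.46, Gata4 -0.06, Tbx5 -0.27, Mef2c -0.32 and Hopx -0.41. Of 7 conduction system genes 4 were tested, and Tbx18, Tbx3 and Hcn4 had r of 0.12, 0.06 and -0.33. None of these genes passed by limma in a dose group. At an unadjusted p below 0.05 there were 0 atrial or vein genes in Low, 3 in Medium and 2 in High dams. In the same order there were 0, 2 and 0 ventricular genes, 1, 2 and 1 transcription factors, and 1, 2 and 2 conduction genes. The shares of all genes were 7.5%, 14.1% and 16.5%.

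The genes of the natriuretic peptide pathway differed in their correlation with the members. Corin, the protease that activates the atrial peptide, had r = 0.82 with the members, while the receptor genes Npr1, Npr2 and Npr3 had 0.11, -0.33 and -0.09. Furin, a protease that processes prohormones, had r = -0.51, and Mme, the peptide-degrading enzyme neprilysin, -0.15. None of the 8 pathway genes tested passed by limma in a dose group. At an unadjusted p below 0.05 there were 1 in Low, 3 in Medium and 4 in High dams, against 7.5%, 14.1% and 16.5% of all genes. In High against Control dams the difference was -0.37 for Prkg1, a kinase activated by cyclic GMP, -0.34 for Mme and -0.31 for Npr1, at adjusted p of 0.0593, 0.0752 and 0.087 by limma.

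Markers of other tissues moved with the members to different degrees. All 8 fat genes tested of 11 had a positive r, with a median of 0.75, and their mean level ran from 0.90 to 2.44 in Control, 0.88 to 3.14 in Low, 0.40 to 2.63 in Medium and 0.48 to 3.07 in High dams. Adipoq (adiponectin) ran from -0.28 to 4.73 with r = 0.77, Cfd (adipsin) from 0.37 to 5.70 with r = 0.76, Plin1 from 0.17 to 4.72 with r = 0.67 and Fabp4 from 2.13 to 5.18 with r = 0.70. The brown fat marker Ucp1 was well above background on 1 array. Cidea and Cpt1b of the same list were well above it on 20, with r of 0.79 and 0.86, and Cidea ran from 1.32 to 3.14. No fat gene passed by limma in any dose group. 0 had an unadjusted p below 0.05, against 7.5% of all genes in Low, 14.1% in Medium and 16.5% in High dams. Their part in the spread of the heart genes was not tested.

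Of 13 skeletal muscle genes tested of 15, Myl1 (r = 0.95), Myh4 (0.96) and Atp2a1 (0.89) followed the members, and the median r was 0.37. Myl1 ran from -3.14 to 0.48, whereas Acta1, skeletal alpha actin, had r = 0.41. Their mean level was -1.18 to -0.59 in Control, -1.19 to -0.63 in Low, -1.10 to -0.64 in Medium and -0.97 to -0.60 in High dams. All 12 smooth muscle genes were tested, with a median r of 0.65, led in spread by Cnn1 (r = 0.73), Acta2 (0.67), Myl9 (0.67) and Tagln (0.58). Their mean level was 1.02 to 1.32 in Control, 0.95 to 1.23 in Low, 0.59 to 1.32 in Medium and 0.83 to 1.12 in High dams. The median difference of the smooth muscle genes was -0.08 in Low, -0.31 in Medium and -0.14 in High dams. At an unadjusted p below 0.05 by limma there were 1 in Low, 6 in Medium and 1 in High dams. For skeletal muscle the counts were 0, 1 and 0, and the shares of all genes were 7.5%, 14.1% and 16.5%. Smtn, smoothelin, was the 1 gene of all these lists that passed, in High against Control dams, where 1.04% of all genes passed. Smtn fell by 0.28 there, at an adjusted p of 0.0254 by limma. It kept an adjusted p below 0.05 in 25 of 34 alternatives, and its r with the members was -0.24.

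Lung and blood genes had weak or negative correlations with the members. The 12 lung markers had a median r of -0.39, and those with the largest spread, Cdh5, Sftpc, Sftpa1 and Scgb1a1, had r of 0.06, -0.37, -0.39 and -0.38. The 5 blood genes had a median r of -0.25, with Slc4a1 at 0.10, Hba-a1 at -0.35, Alas2 at -0.25 and Hbb-bt at -0.26. The mean of the blood list had r = -0.09, and 0.18 without Medium 50 and Control 14, the 2 lungs with the lowest mean of the members. The mean of the lung list had r = -0.32, and 0.02 without these 2 lungs. The mesothelial genes Msln and Upk3b had r of -0.35 and -0.22, and the thymus list, with 4 of 8 genes tested, had a median of -0.24. The mean of the thymus list had r = -0.43, and -0.20 without the same 2 lungs.

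**Figure D5:**
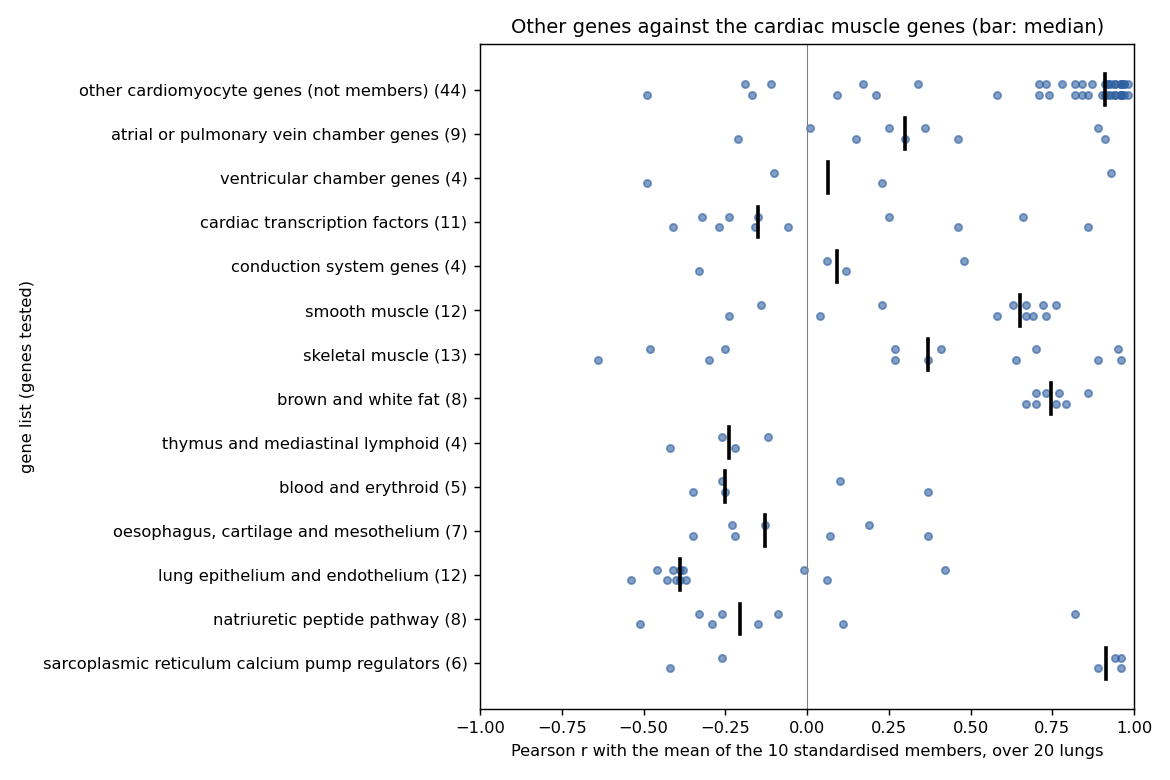
Pearson r over 20 lungs of each tested gene (points) with the mean of the 10 standardised members (horizontal axis), by gene list (vertical axis, number of genes tested in brackets); bars give the list's median. The cardiomyocyte list has a median of 0.91 and the lung list one of -0.39; the fat list, with a median of 0.75, lies wholly above 0.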

How the data were processed

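The deposited value table holds 1 value per array feature that tracks log2 of Cy5 over Cy3 median spot intensity (r of 0.962 to 0.992 over 20 arrays), so it was taken as log2 lung over reference; its normalization by the authors is not stated in the labels or headers, no background appears subtracted, and column medians lie between -0.05 and -0.0315. The scanner intensities and log10 ratios come from Agilent Feature Extraction 9.5.1.1 (18 arrays) and 10.1.1.1 (2 arrays), per the file headers. The value table is the main source because normexp correction of the intensities, kept as an alternative, compressed Low 27 (slope of 0.705 against the mean of the other arrays; 0.964 to 1.06 for the others).

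Outlier spots were left out and spots of a probe averaged. Probes were kept when well above background in Cy5 on at least 3 of 5 arrays of a group and the probe brightest over both channels together stood for each gene. limma 3.58.1 in R 4.3.3 fitted 4 groups over 20 arrays, with Benjamini-Hochberg adjustment over 19903 genes, of which 15632 had a current symbol. The fit was tested on simulated data. The precision rests on 5 arrays per group.

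The 10 members and all gene lists were chosen with earlier results of these data known. Named besides the members are the 10 genes most like them, up to 4 genes with the largest SD in each muscle, conduction, fat, blood and lung list, and genes that passed; other names (such as Myh7, Atp2a3, Hamp, Kcnj3, Gja5, Tbx20, Myl3, Hey2, Irx4, Corin, Npr1, Furin, Mme, Prkg1 and Msln) were chosen after their values were seen, and some listed genes are not reported here. Alternatives changed the background correction, ratio, scaling, filter, probe choice, blocks and arrays included.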

Additional observations from a re-analysis of the deposited data

Results flagged for a closer look

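By Dixon's test at the 95% level within each group of 5 dams, 12 of 40 gene and group combinations held a value far from the other 4 dams. The test flags about 1 in 20 groups by chance, but the genes were chosen for their spread over these same lungs and vary together, so the 12 are a description and are not read against that rate. In Medium 46 the log2 ratio was 2.45 for Nppa (others 0.16 to 0.32), 3.28 for Myh6 (others 1.43 to 1.84), 2.62 for Myl4 (others -0.33 to 0.09), 1.89 for Actc1 (others -0.34 to 0.28), 3.71 for Tnni3 (others 0.61 to 1.22) and 2.62 for Tnnt2 (others -1.17 to -0.16). In High 64 the log2 ratio was -0.09 for Nppb (others -1.0 to -0.78). In Control 14 the log2 ratio was -0.37 for Myl4 (others 1.90 to 2.52), 2.48 for Myl7 (others 4.09 to 4.45), 0.08 for Sln (others 4.10 to 4.57), 0.48 for Tnni3 (others 2.70 to 3.53) and -0.68 for Tnnt2 (others 1.80 to 2.23).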

How the results depend on the processing

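No member passed in any dose group under the main settings or the 34 alternatives, where the lowest adjusted p of a member was 0.0893. The median difference over the members in Medium dams was negative under all 34, from -1.76 to -0.41, and from -1.24 to -0.67 when single dams were left out. In High dams it ranged from -0.31 to 0.35 and in Low dams from -0.41 to 0.41 when single dams were left out, so it has no settled sign. The median pairwise correlation of the members, 0.70, was 0.36 in the Feature Extraction log ratio and 0.88 with probes well above background on all 5 arrays of a group, which leaves out Myl2, and 0.68 to 0.76 when single dams were left out. The cause of the first change was not tested.

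Over all genes 207 passed in High dams (388 with no filter, 341 with probes averaged, 617 with slide and 416 with scan day as a block, 21 with the arrays of these 2 groups, 15 with normexp, 9 with Feature Extraction log ratios, 18 with Cy5 alone). Leaving out High 62, High 63, Control 7, Control 15 or Control 18 left 77, 111, 128, 80 and 101. In Medium dams 1 gene passed, with 0 to 9 under the alternatives, and in Low dams 1, with 0 or 1. Smtn lost its call under 9 of 34 alternatives, added after seeing the data (adjusted p 0.0125 to 1).

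No paired analysis was possible because animal numbers are not shared between groups; dams that share a slide were compared with the slide as a block, where no member passed either. Signals near background limit Myl2, the Nppb probe used, the lowest Nppa values and the second probes of Nppa, Sln and Tnnt2. The 5 dams a group, with Control 14 and Medium 46 apart, limit every comparison.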
